A study of Arabidopsis thaliana with 16 samples.

Results

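Transcript levels in leaves depleted of the N-terminal acetyltransferase NatA were set directly against those in leaves of plants under drought. The comparison took 12 of the 16 arrays of the series, chosen by their titles: 4 of amiNaa10, 4 labelled amiNaa15 and 4 of wild type drought. The remaining 4 arrays, of well-watered wild type, entered no test and are given only to show where that group lay. All plants were *Arabidopsis thaliana* Col-0, and the labels give 6 weeks of growth on soil with 8 h of light and 16 h of dark per day. In amiNaa10 and amiNaa15, both well watered, an artificial microRNA expressed from the CaMV35S promoter was directed against *NAA10* or *NAA15*, and the study names 1 line of each for the arrays. The drought group was wild type without the transgene, from which water was withheld for 10 days after those 6 weeks. The methods give another growth time and day length than the labels. By the labels the age of the well-watered plants at harvest is not settled, whereas the methods put all plants at the same age. Genotype and water supply, and by the labels possibly age, thus differed together between the 2 sides, and their parts in a difference cannot be told apart within the comparison.

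NatA sits at the ribosome and acetylates the N terminus of many proteins once their first methionine has been removed. NAA10 is its catalytic subunit and NAA15 anchors the complex to the ribosome. In drying leaves the hormone abscisic acid (ABA) accumulates and binds the PYR/PYL receptors, which then block clade A PP2C phosphatases, so that SnRK2 kinases are released and switch on, through ABF factors, genes for protective proteins such as RD29A and RAB18. The direct comparison asks what separates the NatA-depleted, well-watered leaf from the wild type leaf after 10 days without water.

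Whole-leaf RNA was measured on Affymetrix AraGene-1_0-st arrays. The deposited values are log2 signals of 27827 genes after quantile normalization by the authors, which takes out any shift common to all genes. In whole-leaf RNA, fewer cells of a type and less RNA per cell cannot be told apart. Knock-down and drought arrays correlated across genes at 0.945 to 0.978, and arrays of 1 group at 0.971 to 0.991. The targeted genes were examined first. *NAA10* (AT5G13780) lay between 4.92 and 6.89 on the 8 knock-down arrays (median 5.16) and at 6.75, 7.05, 6.88 and 6.54 on the drought arrays. All 4 amiNaa10 arrays and the first 2 labelled amiNaa15 were at or below 5.28, whereas those labelled amiNaa15 replicates 3 and 4, at 6.89 and 6.86, fell among the drought arrays. The mean difference was -1.26 (two-sided exact permutation test over the 495 regroupings of 8 against 4 arrays, p = 0.0404, the smallest possible being 0.00202). *NAA15* (AT1G80410) had the reverse arrangement, at 7.97 and 7.80 on replicates 3 and 4 of that label and between 9.46 and 9.87 on the other 6 knock-down arrays, against 9.29, 9.28, 9.19 and 9.24 in drought (difference -0.08, exact p = 0.923). The targeted genes therefore went against the label of 2 arrays, amiNaa15 replicates 1 and 2, hence the wording "labelled amiNaa15" for this group. Root markers (6 genes) and floral markers (6 genes) held mean signals of at most 3.32 on all 12 arrays, and none of them was called.

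A gene was called when its difference exceeded 1.5-fold at a limma adjusted p below 0.05, the difference being the mean of the 2 knock-down group means minus the drought mean. Of 27827 genes, 4403 (15.8%) were called, 2344 higher (8.42%) and 2059 lower (7.40%) in the knock-downs. The median difference over all genes was -0.01, and the median size of the difference, whatever its sign, was 0.21. Differences of more than 2-fold were found for 1033 of the higher and 811 of the lower genes, and of more than 8-fold for 39 and 30. All 8 knock-down arrays lay on 1 side of all 4 drought arrays for 5096 genes (18.3%), and 3138 of these were called. The scatter of group means shows genes called in both directions at almost every signal level.

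**Figure D1:**
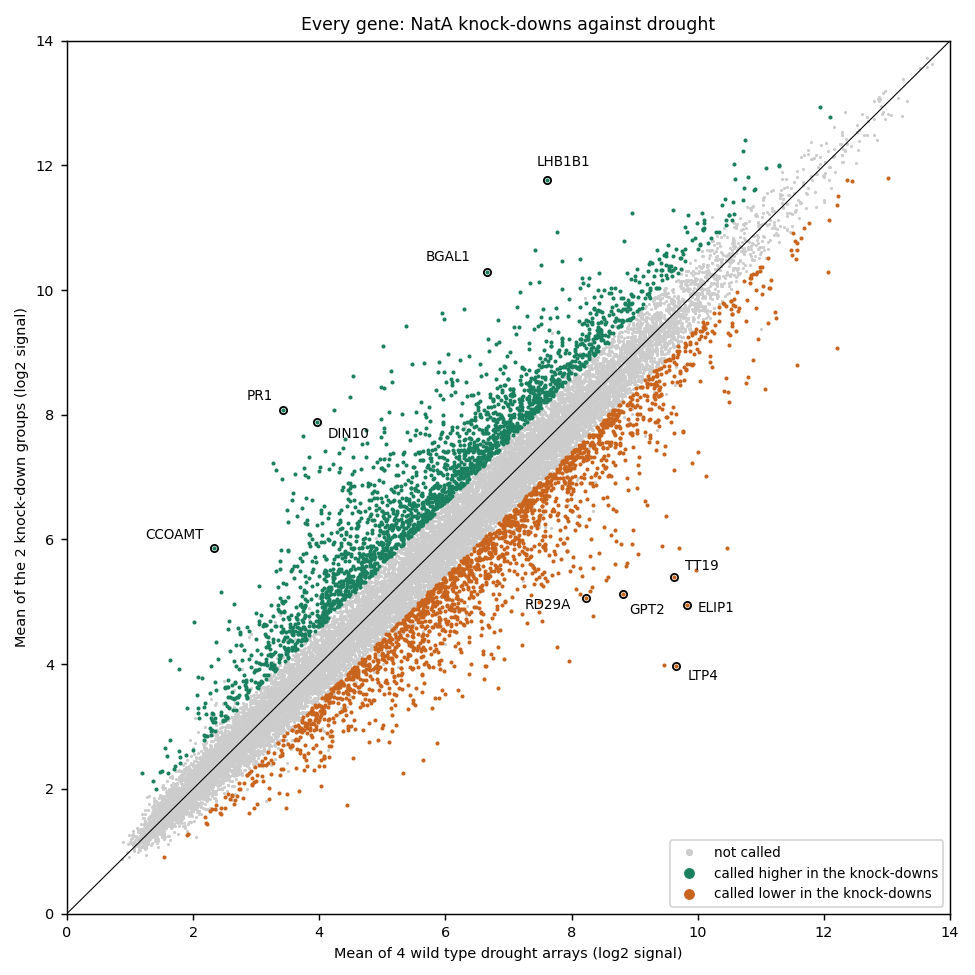
Mean log2 signal of each gene in the 2 knock-down groups (vertical axis) against its mean on the 4 drought arrays (horizontal axis), with the line of equal signal. Called genes are coloured by direction, 2344 above the line and 2059 below it, and circles mark 10 genes described in the text.

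The well-watered wild type, although outside the test, divided the called genes into different kinds. Its mean lay closer to the knock-down mean than to the drought mean for 71.1% of the higher and 67.2% of the lower genes. Among the 2344 higher genes the control was beyond the knock-down mean for 619, between the means but nearer the knock-downs for 1048, nearer drought for 565 and beyond the drought mean for 112. Among the 2059 lower genes these counts were 353, 1031, 528 and 147. In the first pair of classes the control mean was thus closer to the knock-down mean than to the drought mean. In the last pair it was closer to the drought mean. Examples of each class follow, many with the control range beside the values.

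**Figure D2:**
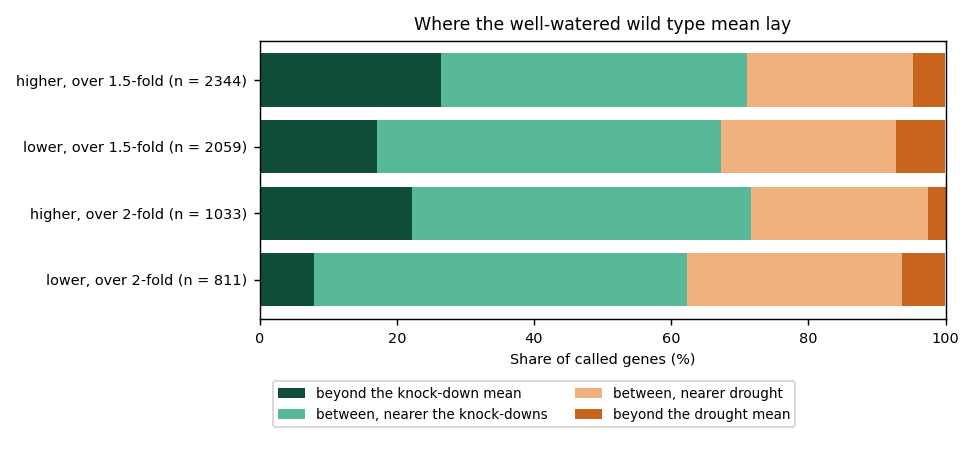
Share of the called genes (horizontal axis, percent) by the place of the well-watered wild type mean, for genes called higher or lower in the knock-downs at 1.5-fold and at 2-fold. In each bar the control lies on the knock-down side for between 62.3% and 71.5% of the genes.

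Genes of the dehydration response were lower in the knock-downs than in drought. Of 25 ABA and dehydration marker genes, 18 were lower (72%, against 7.40% of all genes) and 1 higher, with a median difference of -1.45. *RD29A* (AT5G52310), a hydrophilic protein of the dehydration and cold response, lay between 3.92 and 5.93 on the knock-down arrays (median 5.11) and at 8.88, 8.07, 8.44 and 7.54 on the drought arrays. No knock-down array reached any drought array, and its difference of -3.18 (standard error 0.33, adjusted p = 2.65e-05) equals 9.04-fold. *RAB18* (AT5G66400), a dehydrin, lay between 4.36 and 5.88 on the knock-down arrays (median 5.28) and at 8.16, 7.31, 9.08 and 7.72 on the drought arrays. It was 7.24-fold lower in the knock-downs (-2.86, standard error 0.33, adjusted p = 4.84e-05) with no overlap of the groups, and its control arrays, at 6.12 to 6.60, lay between them. The dehydrin *LTI30* (AT3G50970) lay between 1.45 and 2.25 on the knock-down arrays (median 1.70) and at 4.99, 4.02, 5.23 and 3.51 on the drought arrays, a difference of -2.70 (standard error 0.27, adjusted p = 1.85e-05). Knock-down values of *LTI30* were near the lower end of the array's range, so that its fold is not given, and again every drought array was above every knock-down array. The homeodomain factors *ATHB12* and *ATHB7*, both induced by ABA, had differences of -2.39 and -2.27, *ERD7* one of -2.21 and the cold and ABA responsive *KIN1* one of -2.02, with adjusted p of at most 9.23e-05. *KIN1* and *KIN2* are near-identical neighbours, whose signals the probes may share. The exception was *COR15B*, a chloroplast-directed cold protein, at 0.93 (adjusted p = 0.00129). *RD29B* (-0.54, adjusted p = 0.459) and *LEA7* (-0.32, adjusted p = 0.127), a late embryogenesis abundant protein used as an ABA marker in the study, were not called. *LEA7* was 1.30 to 1.89 on the knock-down arrays and 2.05, 1.79, 2.44 and 1.59 in drought, close to the lowest signals of the array. By quantitative PCR the study reports a much higher *LEA7* transcript level in leaves of well-watered amiNaa10 plants than of wild type. Array signals of *LEA7* stayed close to the lowest in drought as well, so they cannot be set against that result. The difference of *LEA7* from the well-watered wild type was not tested here. In 13 of the 19 called markers the control lay on the knock-down side, and in the other 6, *RD29A* among them with a control range of 6.82 to 7.05, it lay nearer drought. The median of the 25 markers stood at -0.83 for the control against -1.71 for amiNaa10 and -1.35 for the arrays labelled amiNaa15, all relative to drought.

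The same direction held for the phosphatases that restrain ABA signalling, whose genes are themselves induced by the hormone. Of 9 clade A PP2C genes, 7 were lower (77.8%) and none was higher, with a median of -1.24. *HAI2* (AT1G07430) lay between 3.63 and 4.24 on the knock-down arrays (median 4.01) and at 6.57, 5.54, 6.70 and 5.75 on the drought arrays. It was 4.51-fold lower (-2.17, standard error 0.21, adjusted p = 1.48e-05), and its control arrays, at 4.20 to 4.27, lay at the upper end of the knock-down range. *PP2CA*, which acts in guard cells and seeds, had a difference of -1.24 (standard error 0.14, adjusted p = 4.12e-05), and *ABI1* one of -0.88 (standard error 0.18, adjusted p = 0.00258). Each of the 7 genes was called on leaving out any of the 12 arrays. Among the 14 PYR/PYL receptor genes 2 were higher (14.3%, against 8.42% of all genes) and 1 was lower (7.14%, against 7.40%). As a list the receptors thus stood near the shares over all genes. *PYL5* rose 2.64-fold (1.40, standard error 0.20, adjusted p = 0.000229) from 6.32, 6.05, 6.33 and 5.79 in drought to between 7.00 and 8.24 in the knock-downs, and *PYL9* fell (-1.03, standard error 0.16, adjusted p = 0.000357). Within the 17 SnRK2 kinases and ABF factors 3 were lower (17.6%) and 1 higher (5.88%). *ABF2* was lower (-0.97, standard error 0.11, adjusted p = 4.2e-05), while *OST1*, the SnRK2 kinase of stomatal closure, at -0.62 (standard error 0.12, adjusted p = 0.0017), lost its call without amiNaa10 replicate 2 or without the array labelled amiNaa15 replicate 1. Of 14 genes of ABA synthesis and breakdown, 3 were lower (21.4%) and none higher. They included *NCED3* (AT3G14440), the dioxygenase that limits ABA synthesis in drying leaves, which lay between 4.87 and 6.30 on the knock-down arrays (median 6.01) and at 7.32, 6.89, 7.72 and 6.93 on the drought arrays. The groups did not overlap, and the difference was -1.40 (standard error 0.26, adjusted p = 0.0015). *CYP707A1*, a hydroxylase that degrades ABA, was also lower (-1.93, standard error 0.21, adjusted p = 3.75e-05), so that genes of both synthesis and breakdown were lower in the knock-downs.

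Sugars of the raffinose family protect drying cells, and galactinol synthase makes the first compound of that route. Of 6 genes of galactinol and raffinose synthesis, 5 were lower (83.3%) and none was higher, with a median of -1.24. *GOLS2* (AT1G56600) lay between 5.37 and 7.41 on the knock-down arrays (median 6.44) and at 9.65, 9.64, 9.35 and 9.36 on the drought arrays. The difference was -3.13 (standard error 0.33, adjusted p = 2.88e-05), or 8.76-fold, with the control at 6.91 to 8.13. *GOLS3*, known for its induction by cold, differed by -3.01 (standard error 0.46, adjusted p = 0.000381). Of 8 proline genes only *ERD5*, the proline dehydrogenase that breaks proline down, was called, at -1.57 (standard error 0.15, adjusted p = 1.29e-05). The control arrays of *ERD5*, at 6.43 to 7.12, reached from below the lowest knock-down array to just above the knock-down median of 7.02. Heat shock genes were lower in part, with 9 of 27 called lower (33.3%) and none higher, at a median of -0.28. Differences were above 0 for 9 of the 27, and 2 were called higher without drought replicate 3. Of 24 genes named HSP, 5 were lower (20.8%) and 2 higher (8.33%), with a median of -0.04. *HSP70* (AT3G12580), a cytosolic chaperone, lay between 6.83 and 7.66 on the knock-down arrays (median 7.21) and at 10.12, 9.82, 10.45 and 9.22 on the drought arrays. With 7.14 to 7.71 the control overlapped the knock-downs, and the difference from drought was -2.68 (standard error 0.22, adjusted p = 6.18e-06), or 6.39-fold. The heat factors *HSFC1* (-2.02, standard error 0.16, adjusted p = 4.67e-06) and *HSFA2* (-1.45, standard error 0.16, adjusted p = 4.27e-05) differed in the same direction, and in 8 of the 9 called heat genes the control lay on the knock-down side.

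The largest differences of all were in lipid transfer proteins, small extracellular proteins associated with the cuticle and with stress. *LTP4* (AT5G59310) lay between 2.67 and 5.34 on the knock-down arrays (median 4.02) and at 9.90, 9.67, 10.49 and 8.60 on the drought arrays. *LTP3* (AT5G59320) lay between 2.52 and 5.91 on the knock-down arrays (median 4.13) and at 9.85, 9.41, 10.23 and 8.34 on the drought arrays. The pair are adjacent and similar genes whose signals probes may share, and they were 52-fold (-5.70, standard error 0.46, adjusted p = 4.88e-06) and 44.3-fold (-5.47, standard error 0.45, adjusted p = 5.94e-06) lower. Control arrays of *LTP4*, at 5.93 to 7.76, lay between the groups and touched neither. *ELIP1* (AT3G22840), an early light-induced protein that binds chlorophyll under light stress, lay between 4.32 and 5.66 on the knock-down arrays (median 5.01) and at 9.81, 9.08, 10.16 and 10.26 on the drought arrays. It was 29.5-fold lower (-4.88, standard error 0.29, adjusted p = 1.06e-06), with the control at 5.35 to 6.49 near the knock-downs. *GPT2* (AT1G61800), which imports glucose 6-phosphate into plastids, lay between 4.48 and 5.43 on the knock-down arrays (median 5.20) and at 8.30, 8.78, 10.67 and 7.52 on the drought arrays. Its difference was -3.70 (standard error 0.43, adjusted p = 5.22e-05), drought replicate 3 held the highest of its values, and the control was at 6.29 to 7.57. *NUDT24*, a Nudix hydrolase, and *DIP2* were the other named genes outside the flavonoid route among the 12 largest falls without overlap of arrays, at -4.47 (standard error 0.56, adjusted p = 8.86e-05) and -3.49 (standard error 0.20, adjusted p = 6.87e-07). Among further carbon genes *GBSS1*, the starch synthase of amylose, fell by 2.29 (standard error 0.26, adjusted p = 4.79e-05). Of 20 starch genes 7 were lower (35%, against 7.40% of all genes) and 2 higher (10%, against 8.42%).

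**Figure D3:**
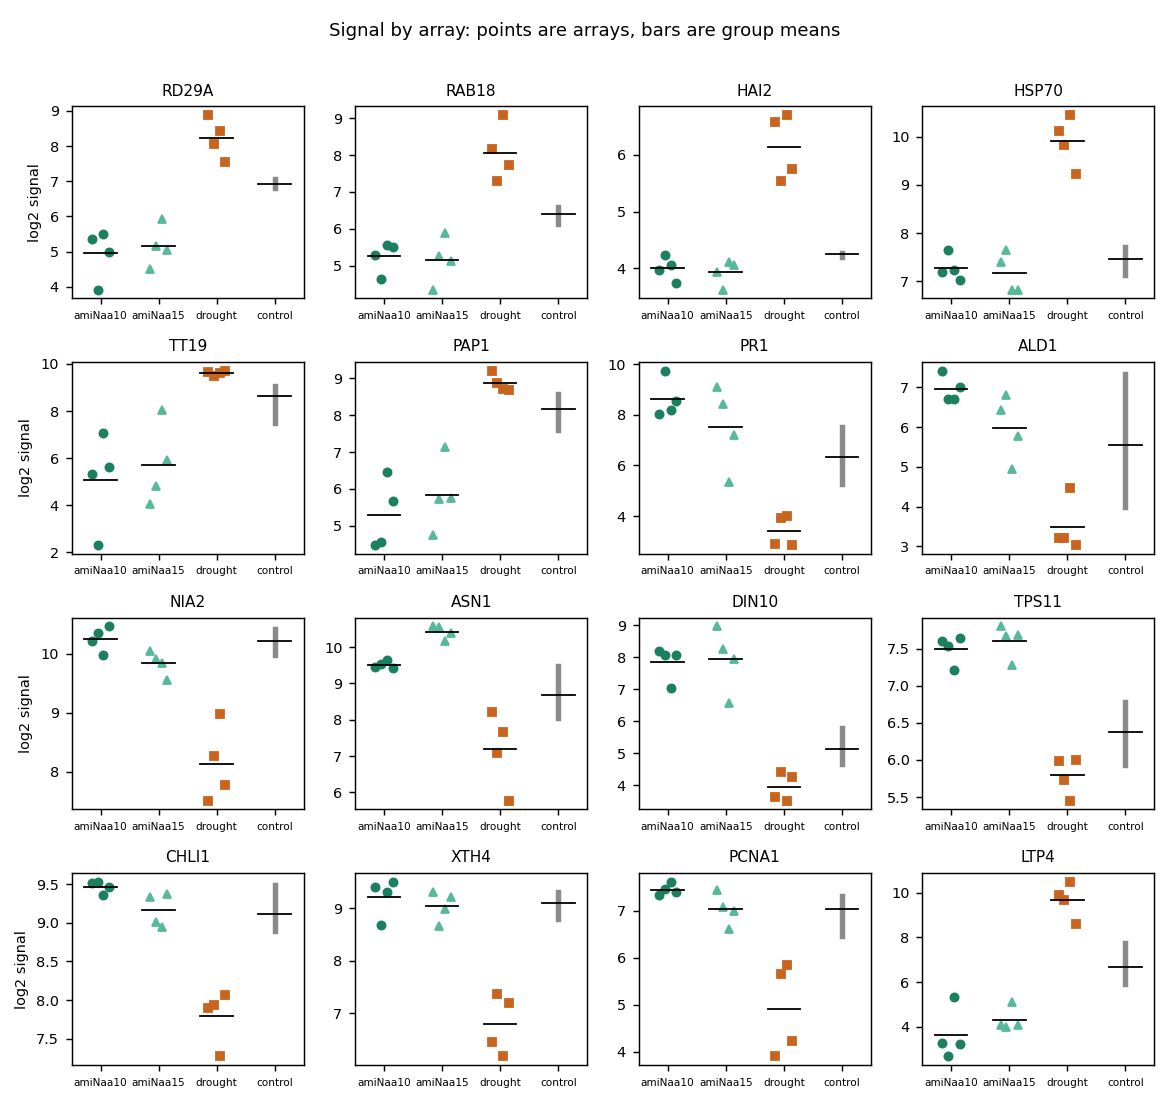
Log2 signal (vertical axes) of 16 genes on each amiNaa10 array, each array labelled amiNaa15 and each drought array, with the range of the 4 well-watered wild type arrays as a grey bar and group means as black bars. In all 16 genes the knock-down points and the drought points do not overlap, while the control bar lies with the knock-downs for *HAI2* and *HSP70* and nearer drought for *TT19* and *PAP1*.

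Flavonoid and anthocyanin genes separated the knock-downs from drought in a different manner, with the control close to the drought plants. Of 19 genes of the route, 14 were lower (73.7%) and none was higher, and the median of -2.55 was the lowest of all 42 lists. *PAP1* (AT1G56650), the MYB factor that switches the anthocyanin branch on, lay between 4.48 and 7.14 on the knock-down arrays (median 5.71) and at 9.20, 8.87, 8.70 and 8.69 on the drought arrays. Its control arrays lay at 7.60 to 8.56, and it was 9.79-fold lower in the knock-downs than in drought (-3.29, standard error 0.42, adjusted p = 9.87e-05). Its bHLH partner *TT8* (AT4G09820) lay between 3.51 and 6.68 on the knock-down arrays (median 4.39) and at 8.46, 7.93, 8.52 and 8.44 on the drought arrays, a difference of -3.57 (standard error 0.48, adjusted p = 0.000153), with the control at 6.37 to 8.05. Enzymes and transporters followed. *TT19* (AT5G17220), a glutathione S-transferase that carries anthocyanin to the vacuole, lay between 2.31 and 8.05 on the knock-down arrays (median 5.47) and at 9.64, 9.50, 9.62 and 9.71 on the drought arrays. The drought arrays were close to one another and the knock-down arrays spread widely below them, and the difference of -4.22 (standard error 0.79, adjusted p = 0.00151) equals 18.6-fold. Its control arrays lay at 7.48 to 9.07. *UGT79B1*, an anthocyanin glycosyltransferase (-3.83, standard error 0.69, adjusted p = 0.0011), and *LDOX*, the anthocyanidin synthase (-3.29, standard error 0.81, adjusted p = 0.00791), showed the same wide spread in the knock-downs, from 2.24 to 8.22 for *LDOX*. *5MAT*, an anthocyanin malonyltransferase, differed by -3.09 (standard error 0.47, adjusted p = 0.000352). Chalcone synthase *TT4*, the entry into the route, lay between 6.97 and 10.13 on the knock-down arrays (median 8.34) and at 10.88, 10.78, 11.22 and 11.35 in drought (-2.65, standard error 0.48, adjusted p = 0.00112). *DFR*, dihydroflavonol reductase, was lower (-3.13, standard error 0.91, adjusted p = 0.0196), a call lost without the arrays labelled amiNaa15 replicates 1 and 2. In 13 of the 14 called genes the control lay nearer drought or beyond it, and the median of the list in the control was -0.08 relative to drought, while amiNaa10 stood at -2.63 and the amiNaa15-labelled arrays at -2.47. Of 19 phenylpropanoid and monolignol genes, 6 were lower and 2 higher, among them *CAD5*, a cinnamyl alcohol dehydrogenase, at -2.11 (standard error 0.26, adjusted p = 7.76e-05).

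Leaf senescence genes were called in both directions, more often lower. Of 18, 9 were lower (50%, against 7.40% of all genes) and 3 higher (16.7%, against 8.42%) in the knock-downs. The list also holds *CAB1*, a light-harvesting gene, and *SEN4*, which is the wall gene *XTH24*, and both are counted in other lists too. *SAG12* (AT5G45890), a cysteine protease expressed in senescing leaves, lay between 2.71 and 8.73 on the knock-down arrays (median 3.29) and at 6.19, 9.90, 8.03 and 7.70 on the drought arrays. A single knock-down array, the one labelled amiNaa15 replicate 3, reached drought values, and the difference was -3.91 (standard error 0.91, adjusted p = 0.00594). Control arrays of *SAG12* were at 2.99 to 3.79. *NAP*, a NAC factor of senescence (-1.37, standard error 0.15, adjusted p = 4.41e-05), and *SGR1*, which removes magnesium from chlorophyll (-1.04, standard error 0.15, adjusted p = 0.000226), were also lower. The opposite was seen for *SEN1* (AT4G35770), a dark and senescence gene also known as *DIN1*, which lay between 8.52 and 10.62 on the knock-down arrays (median 9.30) and at 5.71, 5.70, 5.65 and 4.47 on the drought arrays. It was 16.5-fold higher (4.04, standard error 0.29, adjusted p = 2.79e-06), with the control at 6.95 to 8.02 between the groups.

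*SEN1* belonged to a wider group of genes that respond to darkness and sugar shortage. Of 19 such genes, 11 were higher (57.9%, against 8.42% of all genes) and 2 lower in the knock-downs, with a median of 0.69. *DIN10* (AT5G20250), a raffinose synthase-like protein, lay between 6.57 and 8.96 on the knock-down arrays (median 8.07) and at 3.63, 4.42, 3.52 and 4.27 on the drought arrays. The groups were 15.2-fold apart (3.93, standard error 0.37, adjusted p = 1.38e-05), and the control, at 4.67 to 5.79, lay nearer drought. *ASN1* (AT3G47340), an asparagine synthetase induced in the dark, lay between 9.42 and 10.57 on the knock-down arrays (median 9.91) and at 8.20, 7.09, 7.67 and 5.77 on the drought arrays. Its difference was 2.78 (standard error 0.32, adjusted p = 5.63e-05). The β-galactosidase *BGAL4* (2.87, standard error 0.35, adjusted p = 7.16e-05), the trehalose phosphate synthase-like *TPS11* (1.76, standard error 0.14, adjusted p = 3.76e-06) and *AKINBETA1*, a subunit of the SnRK1 kinase that responds to low energy (1.63, standard error 0.15, adjusted p = 1.24e-05), were higher with no overlap of groups. *BCAT-2*, which degrades branched-chain amino acids and is counted in the same list, was lower (-2.16, standard error 0.27, adjusted p = 8.7e-05). In 8 of the 13 called genes the control lay nearer drought, and the control median was 0.47 relative to drought.

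Salicylate defence genes had the highest share of higher members among the 42 lists. Of 19, 15 were higher (78.9%) and none was lower, and the median was 1.34. *PR1* (AT2G14610), a secreted protein widely used as a marker of salicylate signalling, lay between 5.36 and 9.74 on the knock-down arrays (median 8.32) and at 2.90, 3.93, 4.01 and 2.85 on the drought arrays. The lowest knock-down array was above the highest drought array, and the difference of 4.65 (standard error 0.58, adjusted p = 8.23e-05), or 25.2-fold, was the largest rise among named genes. Control arrays of *PR1*, at 5.25 to 7.53, overlapped the lower part of the knock-down range. *PR5* (AT1G75040), a thaumatin-like protein, lay between 7.25 and 9.24 on the knock-down arrays (median 8.85) and at 5.06, 5.34, 5.52 and 4.58 on the drought arrays. It rose 11.9-fold (3.57, standard error 0.28, adjusted p = 4.24e-06), and *BG3*, a β-1,3-glucanase, rose 11.9-fold (3.57, standard error 0.49, adjusted p = 0.000163). Regulators upstream in the pathway moved too. *ALD1* (AT2G13810), which makes the precursor of the mobile defence signal pipecolic acid, lay between 4.94 and 7.42 on the knock-down arrays (median 6.71) and at 3.21, 3.21, 4.46 and 3.03 on the drought arrays, a difference of 3.00 (standard error 0.33, adjusted p = 4.26e-05). *WRKY38* (3.07, standard error 0.37, adjusted p = 6.78e-05), *WRKY70* (1.69, standard error 0.21, adjusted p = 8.22e-05), *SARD1*, a factor that activates salicylate synthesis (1.81, standard error 0.28, adjusted p = 0.000401), the lipase-like *EDS1* (1.56, standard error 0.15, adjusted p = 1.94e-05) and isochorismate synthase *ICS1*, the main enzyme of that synthesis (1.34, standard error 0.20, adjusted p = 0.000255), were higher with no overlap. *PR2* was not called (0.09, adjusted p = 0.769) and lay at or below 2.30 on all 12 arrays. The control was on the knock-down side for 14 of the 15 called genes and spread widely, from 3.99 to 7.34 for *ALD1*. Without drought replicate 1, 12 of the 19 were called.

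Nitrogen assimilation genes were higher as well. Of 14, 8 were higher (57.1%) and none lower, with a median of 0.89, and the control lay on the knock-down side for all 8. Nitrate reductase *NIA2* (AT1G37130) lay between 9.55 and 10.46 on the knock-down arrays (median 10.02) and at 7.51, 8.26, 8.97 and 7.78 on the drought arrays. Its difference was 1.91 (standard error 0.22, adjusted p = 5.08e-05), and the control arrays, at 9.97 to 10.41, lay within the knock-down range. *ASN2*, a second asparagine synthetase (2.22, standard error 0.14, adjusted p = 1.32e-06), and *GLT1*, the NADH-dependent glutamate synthase (1.55, standard error 0.16, adjusted p = 2.92e-05), behaved alike. A pair of genes of nitrogen status outside that list was among the largest rises. *LBD39* (AT4G37540), a nitrate-induced repressor of anthocyanin and nitrate genes, lay between 7.59 and 9.48 on the knock-down arrays (median 8.34) and at 4.53, 5.52, 5.24 and 4.81 on the drought arrays. It was 10.6-fold higher (3.40, standard error 0.38, adjusted p = 4.12e-05), with the control at 7.43 to 8.14. *BT2* (AT3G48360), a BTB and TAZ domain protein that responds to sugar and nitrate, lay between 5.97 and 9.08 on the knock-down arrays (median 7.02) and at 4.12, 3.85, 3.49 and 3.87 on the drought arrays. The difference was 3.49 (standard error 0.57, adjusted p = 0.000607), and the control, at 4.26 to 6.11, lay nearer drought. The other named genes with the largest rises were *BGAL1*, a β-galactosidase of the cell wall (3.63, standard error 0.22, adjusted p = 1.06e-06), *LUP5*, a triterpene cyclase (3.84, standard error 0.55, adjusted p = 0.000229), *PCR1*, named for cadmium resistance (3.55, standard error 0.28, adjusted p = 4.49e-06), and *CCOAMT*, a caffeoyl-CoA O-methyltransferase (3.53, standard error 0.68, adjusted p = 0.00173).

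**Figure D4:**
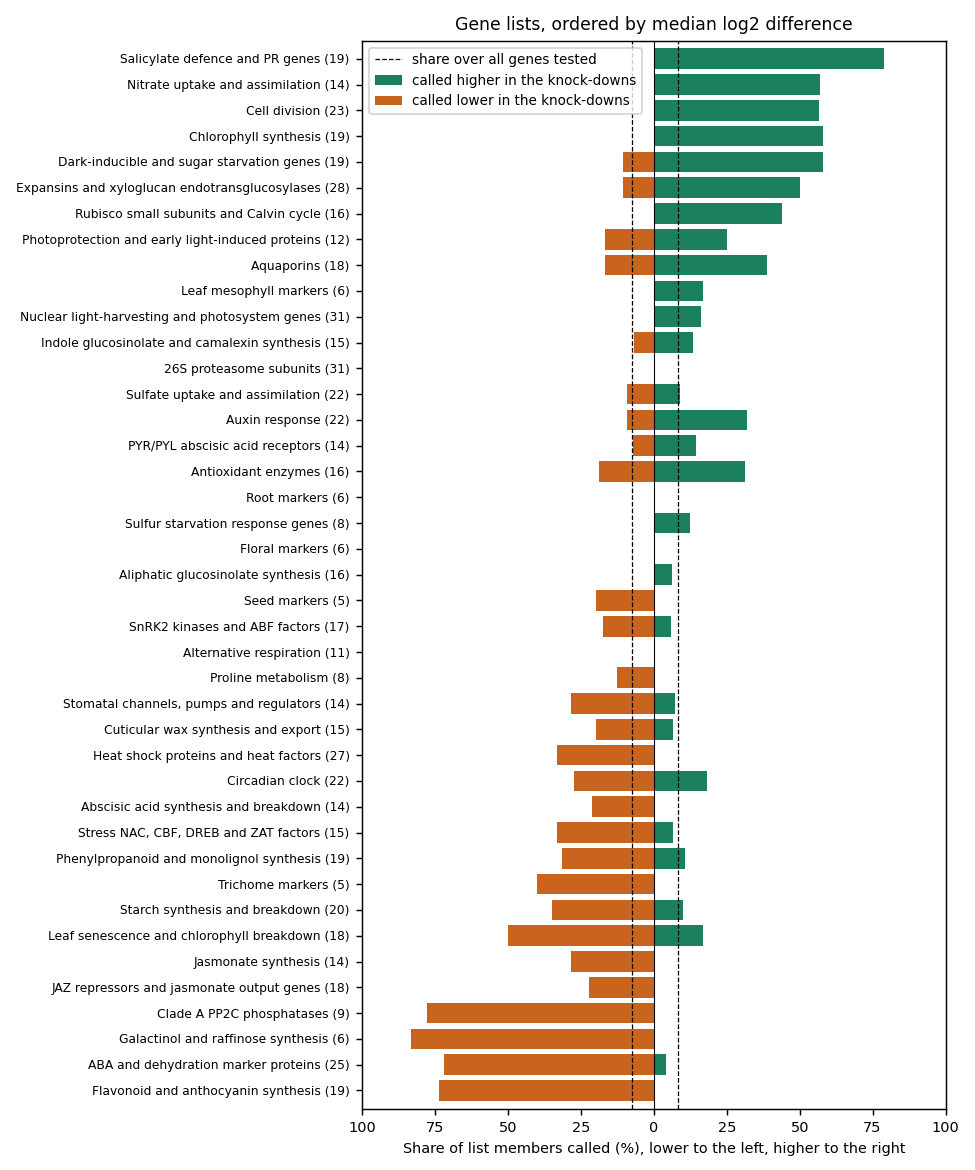
Share of the measured members of each list (number in parentheses) called lower (left) or higher (right) in the knock-downs than in drought, in percent, with lists ordered by their median difference and dashed lines at the shares over all genes tested, 7.40% and 8.42%. Salicylate, nitrate, cell division and chlorophyll synthesis lists extend to the right only, and the flavonoid, galactinol and PP2C lists to the left only.

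Genes of the chloroplast differed by function, and most members of several lists were not called. Of 19 chlorophyll synthesis genes, 11 were higher (57.9%) and none lower, and all 19 differences were above 0 (median 0.76). *CHLI1* (AT4G18480), a subunit of magnesium chelatase, lay between 8.94 and 9.53 on the knock-down arrays (median 9.37) and at 7.89, 7.94, 7.27 and 8.07 on the drought arrays. It differed by 1.52 (standard error 0.14, adjusted p = 1.44e-05), and *HEME2* (1.17, standard error 0.10, adjusted p = 8.51e-06) and *GUN5*, the large chelatase subunit (0.91, standard error 0.13, adjusted p = 0.000239), followed. Of 16 genes of Rubisco and the Calvin cycle, 7 were higher and none lower, led by the Rubisco small subunit *RBCS3B* (2.08, standard error 0.23, adjusted p = 4.28e-05), whose probes may also match its neighbours *RBCS1B* and *RBCS2B*, so that the split among the 3 is uncertain. Of 31 light-harvesting and photosystem genes 5 were higher (16.1%, against 8.42% of all genes) and none lower, or 3 higher without drought replicate 3. Their differences were above 0 for 30 of the 31 but mostly small, at a median of 0.21. An exception by size was *LHB1B1* (AT2G34430), a chlorophyll-binding protein of photosystem II, which lay between 11.52 and 12.06 on the knock-down arrays (median 11.70) and at 7.97, 8.15, 6.02 and 8.29 on the drought arrays. It was 17.7-fold higher in the knock-downs (4.15, standard error 0.33, adjusted p = 4.88e-06), with the control at 11.32 to 11.62, while its neighbour and near copy *LHB1B2* (AT2G34420), at 12.21 to 12.68 and 12.46, 12.37, 12.03 and 12.55, differed by 0.06 (adjusted p = 0.739). How the probes divide this pair is uncertain. Of 12 photoprotection and early light-induced genes, *ELIP1* among them, 3 were higher and 2 lower. *LHB1B1* was also the called gene among 6 mesophyll markers.

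Cell division genes were more often higher than lower in the knock-downs than in drought, and wall genes differed by family. Of 23 cell division genes, 13 were higher (56.5%) and none lower, with a median of 0.80. *PCNA1* (AT1G07370), the sliding clamp of DNA replication, lay between 6.60 and 7.61 on the knock-down arrays (median 7.36) and at 3.90, 5.66, 5.84 and 4.23 on the drought arrays. The difference was 2.33 (standard error 0.32, adjusted p = 0.000168), with the control at 6.46 to 7.31, and the mitotic Aurora kinase *AUR1* was higher (1.73, standard error 0.20, adjusted p = 5.92e-05). For all 13 the control lay on the knock-down side. Of 28 expansins and xyloglucan endotransglucosylases, which loosen and rebuild the cell wall, 14 were higher (50%) and 3 lower (10.7%). The 2 families differed when all genes of each name were counted. Of 23 expansins named EXPA, 1 was higher (4.35%, against 8.42% of all genes) and 3 were lower (13%, against 7.40%), with a median of 0.01. Of 30 genes named XTH, 10 were higher (33.3%) and 1 lower (3.33%). *XTH22*, a touch-induced member, rose 6.55-fold (2.71, standard error 0.23, adjusted p = 7.7e-06). *XTH4* (AT2G06850) lay between 8.67 and 9.50 on the knock-down arrays (median 9.26) and at 6.45, 7.36, 6.18 and 7.20 on the drought arrays, that is 5.05-fold higher (2.34, standard error 0.23, adjusted p = 1.82e-05), with the control at 8.79 to 9.30. *XTH31* was lower (-1.65, standard error 0.38, adjusted p = 0.00512), with the control, at 8.33 to 9.04, above both groups. Of 22 auxin genes 7 were higher (31.8%) and 2 lower (9.09%). *MYB77* (AT3G50060), which acts with *ARF7* in auxin responses and is named in the study, lay between 5.99 and 7.08 on the knock-down arrays (median 6.51) and at 4.43, 4.73, 4.89 and 5.13 on the drought arrays. Its difference from drought was 1.71 (standard error 0.15, adjusted p = 7.41e-06), with the control at 6.72 to 7.90. *ARF7* itself was not called (-0.17, adjusted p = 0.166), and *GH3.3*, an auxin-conjugating enzyme, was higher (1.62, standard error 0.32, adjusted p = 0.00211). For *MYB77* and *ARF7* the study reports lower transcript in the knock-down lines than in wild type. Its discussion places such changes in roots, so that both comparison and tissue differ from those here. Water channels were divided, with 7 of 18 higher (38.9%) and 3 lower (16.7%), the latter falling to 0 without drought replicate 2. *DELTA-TIP* (AT3G16240), of the vacuolar membrane, lay between 9.25 and 9.89 on the knock-down arrays (median 9.55) and at 7.38, 8.21, 6.84 and 8.19 on the drought arrays (1.90, standard error 0.23, adjusted p = 8.14e-05), and *PIP1C*, of the plasma membrane, was higher (1.32, standard error 0.28, adjusted p = 0.00302).

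Of 14 genes of stomatal movement, 4 were lower (28.6%, against 7.40% of all genes) and 1 higher (7.14%). Without drought replicate 3, 2 were lower. *SLAC1* (AT1G12480), the anion channel through which guard cells lose anions on closure, lay between 5.87 and 7.41 on the knock-down arrays (median 6.68) and at 7.91, 8.17, 7.75 and 8.39 on the drought arrays. It was lower (-1.52, standard error 0.27, adjusted p = 0.00104), as was the potassium channel *GORK*, which also acts in closure (-0.98, standard error 0.15, adjusted p = 0.000405). *FAMA*, a factor that sets guard cell identity, was not called (-0.21, adjusted p = 0.44). Of 5 trichome markers 2 were lower, *TRY* (-1.28, standard error 0.27, adjusted p = 0.00349) and *GL3* (-0.96, standard error 0.23, adjusted p = 0.00609), and the summed linear signal of the 5 was 260 to 438 in the knock-downs and 376 to 516 in drought. The part of cell composition in these differences was not tested. Clock genes were divided: the morning factors *LHY* (-1.51, standard error 0.12, adjusted p = 4.37e-06) and *CCA1* (-1.17, standard error 0.12, adjusted p = 3.03e-05) were lower, and *TOC1*, expressed in the evening, was higher (0.99, standard error 0.13, adjusted p = 0.000122). In all, 6 of 22 clock genes were lower (27.3%) and 4 higher (18.2%, against 8.42% of all genes).

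Jasmonate genes had negative medians, and the drought arrays differed widely among themselves, so that the calls depended on single drought arrays. Of 14 synthesis genes 4 were lower (28.6%, against 7.40% of all genes) and none higher (median -0.86). Of 18 JAZ repressors and output genes 4 were lower (22.2%) and none higher (median -0.98). *MYC2* (AT1G32640), the central transcription factor of the pathway, lay between 3.63 and 5.53 on the knock-down arrays (median 4.56) and at 6.14, 6.29, 6.88 and 5.32 on the drought arrays. It was lower (-1.51, standard error 0.28, adjusted p = 0.00125), with overlap of the groups. *LOX3*, a lipoxygenase of jasmonate synthesis, lay between 8.38 and 10.34 on the knock-down arrays and at 11.41, 11.19, 12.42 and 9.44 in drought (-1.64, standard error 0.46, adjusted p = 0.0154), a call lost without drought replicate 3. *JAZ10* varied from 4.19 to 9.66 within drought, and its difference of -1.28 was not called (adjusted p = 0.282). Without drought replicate 4, the lowest drought array for all 3 of these genes, 9 synthesis genes and 13 JAZ and output genes were lower, and without drought replicate 3, the highest, 1 and 3. Sulfur and glucosinolate genes showed little separation. Sulfate assimilation had 2 higher and 2 lower of 22, the root sulfate transporter *SULTR1;2* being higher (1.18, standard error 0.18, adjusted p = 0.00042), and aliphatic glucosinolate synthesis had 1 higher of 16. Of 15 indole glucosinolate and camalexin genes 2 were higher (13.3%, against 8.42% of all genes) and 1 lower (6.67%), or 5 and 0 without drought replicate 3. *CYP81F2*, which modifies indole glucosinolates, was higher (2.04, standard error 0.18, adjusted p = 8.36e-06). None of 31 proteasome subunits and none of 11 alternative respiration genes was called.

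**Figure D5:**
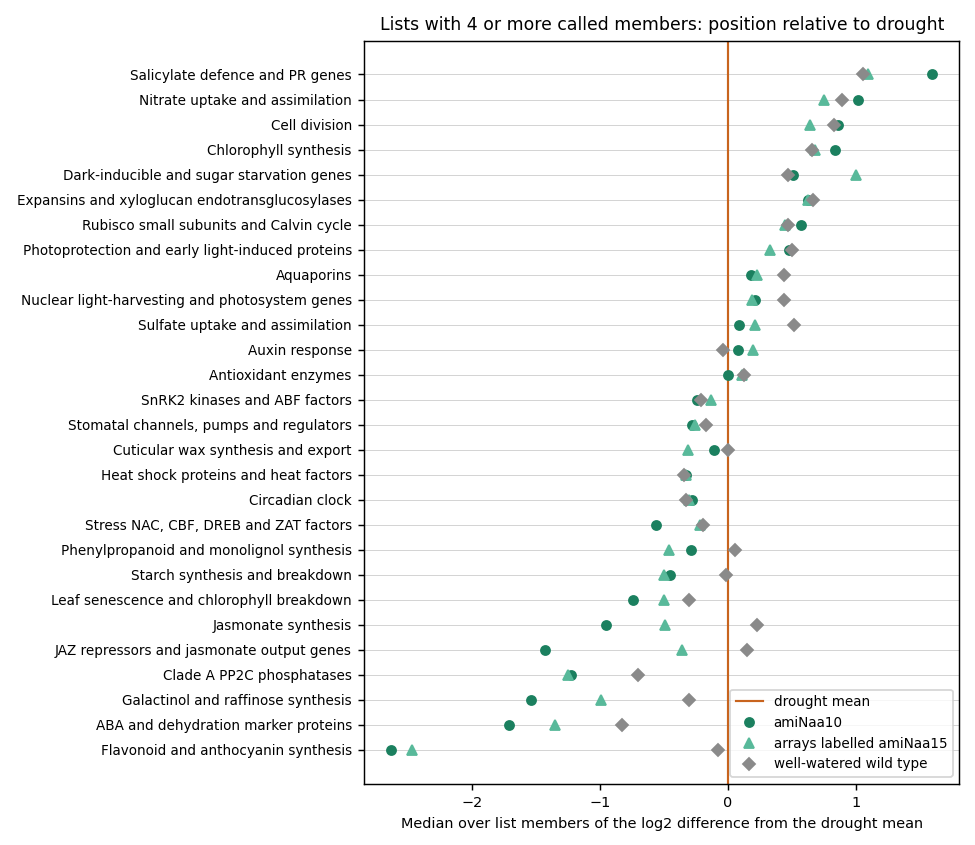
Median over list members of the log2 difference from the drought mean (horizontal axis) for amiNaa10, the arrays labelled amiNaa15 and the well-watered wild type, for the lists with 4 or more called members. The control symbol lies at -0.08 for the flavonoid list, where amiNaa10 is at -2.63 and the arrays labelled amiNaa15 at -2.47, and close to both knock-downs for heat, clock, chlorophyll and cell division genes.

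Each knock-down was also set against drought on its own, using the same 4 drought arrays, so that the 2 comparisons are not independent. In amiNaa10, 2503 genes were higher (8.99%) and 2238 lower (8.04%). On the arrays labelled amiNaa15, 1984 were higher (7.13%) and 1780 lower (6.40%). List medians stood side by side at -1.71 and -1.35 for ABA markers, -2.63 and -2.47 for flavonoids, 1.60 and 1.10 for salicylate defence, 1.02 and 0.75 for nitrate genes, and 0.51 and 1.00 for dark-inducible genes. The widest gap was in the JAZ and output list, at -1.43 and -0.36. When the 2 labelled groups were compared with each other, 2 of the 4 arrays labelled amiNaa15 having *NAA10* and *NAA15* signals against that label, limma called no gene, against 369 genes over 1.5-fold whose unadjusted p was under 0.05. The difference of amiNaa10 from the amiNaa15-labelled arrays was -1.05 (adjusted p = 0.577) for *MYC2*, -0.91 (adjusted p = 0.67) for *ASN1* and 1.11 (adjusted p = 0.78) for *PR1*, none of them passing the test.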

How the data were processed

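The authors applied RMA background correction and quantile normalization, and obtained 1 value per gene through version 16 of a custom annotation. The deposited unit is log2 signal, for 27827 genes. Of these, 5974 had a mean below 3 in the 12 arrays used, near background. The number of arrays limits the precision. The sample labels call the replicates biological, and p-values measure the spread between them.

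Each gene was fitted with 1 mean per group over 12 arrays (9 residual degrees of freedom) in limma 3.58.1 under R 4.3.3, with eBayes and p-values adjusted by Benjamini-Hochberg. Calls needed an adjusted p below 0.05 together with a difference over 1.5-fold. The 4 control arrays stayed out of the fit. Here 2 genes had constant signal within groups and were not called. Gene symbols were looked up by locus in RefSeq's table for TAIR10.1, which held 27241 of the loci, 10561 with a symbol. Of 689 list entries, 664 were used, 24 were not paired with their symbol and 1 was not among the genes measured. The genes named are the 12 largest rises and 12 largest falls with a symbol among called genes with no overlap of arrays, members of the lists, and genes the study names. Members and lists were chosen with earlier results of these data known. The fit was tested on simulated data. Alternatives covered the threshold, the variance, normalization, low signals, array weights, the replicate block and arrays left out. Tables and plots used pandas 2.3.3 and matplotlib 3.10.9 (Python 3.11.15).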

Additional observations from a re-analysis of the deposited data

Results flagged for a closer look

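For 13 of 303 groups of 4 arrays (101 genes in 3 groups), 1 array stood far from the other 3 by Dixon's criterion, which chance meets in about 1 of 20 groups. In drought, replicate 3 was low for *LHB1B1* (6.02, the others at 7.97 to 8.29) and high for *ALD1* (4.46, the others at 3.03 to 3.21). Drought replicate 4 was low for *SEN1* (4.47 against 5.65 to 5.71) and for *DIP2* (7.06 against 7.95 to 8.06). Drought replicate 2 was low for *TT8* (7.93 against 8.44 to 8.52), and drought replicate 1 for *XTH22* (4.69 against 5.45 to 5.61). Among the arrays labelled amiNaa15, replicate 3 was low for *PR5* (7.25 against 8.72 to 8.88) and high for *LTP4* (5.10 against 3.98 to 4.08), and replicate 4 was low for *LOX3* (8.80 against 10.14 to 10.34). In amiNaa10, replicate 2 was low for *XTH31* (4.91 against 6.51 to 6.76) and for *SLAC1* (5.87 against 6.67 to 6.70), replicate 3 for *DIN10* (7.05 against 8.07 to 8.18) and replicate 1 for *SULTR1;2* (5.34 against 5.70 to 5.71). Among these 13 genes, leaving out 1 array ended the call of *LOX3* alone, without drought replicate 3 (-1.21).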

How the results depend on the processing

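The counts of 2344 higher and 2059 lower genes moved most with the fold threshold: 3965 and 4364 without a fold minimum, 1033 and 811 at 2-fold, and 647 and 481 with limma's treat at 1.5-fold. For amiNaa10 the counts were 1177 higher and 922 lower at 2-fold, 660 and 461 with treat, and 3902 lower without a fold minimum. For the arrays labelled amiNaa15 they were 902 and 710 at 2-fold, 364 and 295 with treat, 3064 lower without a fold minimum, and 1272 and 1130 without replicates 1 and 2 of that label, which leaves 2 arrays in the group. Leaving out each of the 12 arrays in turn gave 2186 to 2484 higher and 1938 to 2196 lower genes for both knock-downs together, 2326 to 2673 and 2046 to 2316 for amiNaa10, and 1703 to 2125 and 1478 to 1948 for the arrays labelled amiNaa15. Deviations of same-numbered arrays from their group means correlated at -0.06 to 0.32. Between amiNaa10 and the arrays labelled amiNaa15 these correlations were 0.01, 0.32, 0.32 and 0.09. A pair with different numbers also reached 0.32, so whether the replicate number marks a pairing is not settled. With the replicate block 2354 genes were higher and 2093 lower. The other alternatives stayed within 1.5 times of these counts, for either knock-down too. Of 101 genes described, 3 changed sign. *NAA15* did so without the array labelled amiNaa15 replicate 3 (0.05), replicate 4 (0.08) or both (0.36), and ranged from -0.23 to 0.08 with 1 array left out. *PR2* ranged from -0.08 without drought replicate 1 to 0.25 without drought replicate 3, and *LHB1B2* from -0.04 without drought replicate 3 to 0.13 without drought replicate 4. The treat test ended 21 calls among these genes and the 2-fold minimum 8. The share of called genes with the control on the knock-down side was 71.5% (higher) and 62.3% (lower) at 2-fold. The description of promoter motifs and protein N termini that had been planned was not run, since no sequences were used here. Signals near the lower end of the arrays, as for *LEA7*, limit what could be seen.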

Other observations

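Some gene families, a few of their members also in the lists, had shares of called genes away from the background of 8.42% higher and 7.40% lower. They were read from the symbols of the RefSeq table after the values were seen, over all families of at least 10 genes, and are a description without a test. Of 40 cysteine-rich receptor-like kinases (CRK), 24 were higher in the knock-downs (60%) and 2 lower, with a median difference of 0.80, and their mean signal was 5.94 to 6.65 on the knock-down arrays against 5.50 to 5.65 in drought and 5.50 to 6.20 in the control. The control lay on the knock-down side for 8 of those 26. Of 52 receptor-like proteins (RLP), 18 were higher and 7 lower, and of 67 WRKY factors 17 were higher and 3 lower. Of 160 genes named for embryo-defective mutants (EMB), 30 were higher and 2 lower. In the other direction stood 11 genes named RAP with 7 lower, 12 cytokinin response factors (CRF) with 6 lower and 40 homeobox genes (HB) with 12 lower and 1 higher. Of 120 MYB genes 24 were lower and 9 higher.

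Several classes of non-coding RNA genes, small nucleolar RNA and microRNA among them, were more often called lower than higher in the knock-downs, again as a description. Of 68 small nucleolar RNA genes, 30 were lower (44.1%) and none was higher, with a median of -0.56. Their mean signal was 6.06 to 6.54 on the knock-down arrays, 6.83 to 7.00 on the drought arrays and 6.10 to 6.60 on the control arrays, and the control lay on the knock-down side for 28 of the 30. Of 174 microRNA genes, 40 were lower (23%) and 1 higher, with mean signals of 3.05 to 3.17 on the knock-down arrays, 3.30 to 3.53 in drought and 3.09 to 3.13 in the control. These mean signals of microRNA genes are near the lower end of the array's range. Genes classed only as non-coding RNA went the same way, with 44 of 165 lower (26.7%) and 12 higher (7.27%). Of 13 small nuclear RNA genes 2 were lower (15.4%) and none was higher. Of 222 long non-coding RNA genes 22 were lower (9.91%) and 10 higher (4.5%). Transfer RNA genes did not share this direction, with 4 of 61 higher and none lower. Protein-coding genes had 2303 higher and 1903 lower of 26474.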
